A study of Mus musculus with 42 samples.

Results

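Of the 14296 genes measured, 159 (1.11%) carried a pulse of expression at 6 h after mouse embryonic stem cells (ESCs) were induced to differentiate. They were chosen on their level, in log2 CPM (read counts scaled to library size), at 3 time points. The 6 h duplicate mean had to be 0 or more, and the 6 h value had to exceed both the 0 h and the 24 h value by 1.5 or more in replicate A and again in replicate B. The measurements at 0, 6 and 24 h therefore describe how the genes were picked and are given without a test, whereas the other 18 time points did not enter the choice.

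The cells were W9.5 ESCs, a low passage line of strain 129X1/SvJ, left to differentiate without direction into embryoid bodies, which are aggregates that form the 3 primordial germ layers. No gene was altered and no agent was compared. Every group is 1 time point. There were 21, spaced 6 h apart and ending at 120 h, each sampled once in the biological duplicate courses A and B, which gave 42 libraries of stranded poly-A RNA. Tests outside the choice rest on these 2 libraries per time point, and their p-values measure the spread between duplicates. W9.5 is a single cell line, and a bulk library averages all cells of a culture, so that more cells expressing a gene and more RNA per cell cannot be told apart.

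Cells that are moved, dissociated or given fresh serum switch on immediate early genes, whose promoters are held ready for factors such as SRF and CREB and need no new protein. Many of these genes encode transcription factors of the FOS, JUN, EGR, NR4A and ATF3 type. FOS and JUN family proteins pair into AP-1, which then drives a later set of secreted ligands, cytoskeletal proteins, keratins and proteases, while dual-specificity phosphatases such as DUSP5 switch the ERK kinases off again. Metallothioneins are small proteins that bind zinc and are induced through metal response elements. In ESCs, ERK signalling is known as a trigger for leaving the naive state, and LIF, which holds it, is withdrawn when embryoid bodies are made.

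The libraries held between 10120972 and 51652434 counted reads (median 29692082), and 3 reads corresponded to between 0.0571 and 0.316 CPM. The shallowest library was replicate B at 30 h. A member had at least 16 reads in each 6 h library, so the pulse itself was read well above the floor, whereas 18 members had 3 reads or fewer in both 0 h libraries and their difference from 0 h depends on the offset added before the logarithm. All 10 ESC markers were measured and none was below 1 CPM in all 6 libraries of 0, 6 and 24 h, with a summed level of 5770 CPM (A) and 6280 CPM (B) at 0 h and 6430 CPM and 6520 CPM at 6 h. The 9 measured fibroblast markers summed to 50.9 and 52.6 CPM at 0 h and to 22.2 and 19.7 CPM at 6 h, with Col1a2, Col3a1, Postn and Dcn under 1 CPM in all 6 libraries of 0, 6 and 24 h. The 5 measured endoderm markers summed to 8.07 and 7.61 CPM at 0 h and to 13.2 and 13.5 CPM at 6 h, and the 7 trophectoderm markers to 37.0 and 35.8 CPM and then 33.7 and 35.0 CPM. The 3 measured keratinocyte and squamous epithelium markers summed to 22.5 and 20.6 CPM at 0 h and to 404 and 408 CPM at 6 h, but all 3 (Krt13, Krt16 and Sfn) are members, so the choice fixed this. The 1 measured leukocyte marker was at 29.8 and 30.1 CPM and then at 23.2 and 25.9 CPM. Gata3 and Sox7, which stand in the trophectoderm and endoderm lists, are members too. The part that a change in cell make-up had in the pulse was not tested.

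Of 9 motifs searched in the DNA around the start sites, the AP-1 letters had the widest gap in percentage points between members and all genes. RefSeq promoter windows (GRCm38.p6, 250 bases before to 50 after a start site) were matched to 105 of the 159 members, as 139 windows, and to 10686 of the 14296 genes, as 13721 windows. The AP-1 letters TGACTCA, searched on both strands, were in 20 of the 139 member windows (14.4%), against 3.55% of all windows, and in 15 of the 105 member genes (14.3%), against 4.3% of genes. The 6 members with the largest pulse among those with a match in the 250 bases upstream are printed in GRCm38.p6, 5′ to 3′ on the strand of the gene, with the match in capitals.
Krtdap: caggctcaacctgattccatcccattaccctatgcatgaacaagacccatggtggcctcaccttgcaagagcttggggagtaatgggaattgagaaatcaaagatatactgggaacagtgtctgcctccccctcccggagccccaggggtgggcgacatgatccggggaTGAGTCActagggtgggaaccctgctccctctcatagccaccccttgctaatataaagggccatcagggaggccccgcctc
Krt13: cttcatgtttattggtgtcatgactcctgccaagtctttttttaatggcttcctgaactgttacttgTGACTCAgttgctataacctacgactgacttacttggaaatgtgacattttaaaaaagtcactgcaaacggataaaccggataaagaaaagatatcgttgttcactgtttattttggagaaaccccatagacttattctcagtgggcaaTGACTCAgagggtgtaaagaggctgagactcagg
Dmkn: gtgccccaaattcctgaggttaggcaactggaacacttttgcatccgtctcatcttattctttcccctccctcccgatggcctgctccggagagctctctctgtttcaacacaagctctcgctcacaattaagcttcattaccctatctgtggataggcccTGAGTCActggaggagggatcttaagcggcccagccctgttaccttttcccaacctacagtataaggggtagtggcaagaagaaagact
Prss23: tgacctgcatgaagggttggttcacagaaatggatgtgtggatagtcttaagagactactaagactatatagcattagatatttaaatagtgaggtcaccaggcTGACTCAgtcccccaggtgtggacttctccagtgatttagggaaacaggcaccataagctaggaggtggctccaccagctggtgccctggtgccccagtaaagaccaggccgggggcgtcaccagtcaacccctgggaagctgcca
Plaur: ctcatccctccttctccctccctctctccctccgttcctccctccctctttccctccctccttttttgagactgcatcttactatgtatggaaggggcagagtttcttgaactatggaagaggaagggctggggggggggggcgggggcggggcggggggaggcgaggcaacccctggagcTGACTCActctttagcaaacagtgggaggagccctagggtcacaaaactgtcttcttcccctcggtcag
Serpinb8: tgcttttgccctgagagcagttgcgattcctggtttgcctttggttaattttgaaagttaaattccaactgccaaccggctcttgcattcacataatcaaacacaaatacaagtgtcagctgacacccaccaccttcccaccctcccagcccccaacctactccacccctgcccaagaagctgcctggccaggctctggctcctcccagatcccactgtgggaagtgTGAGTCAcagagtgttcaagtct

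Krtdap encodes a secreted protein of differentiating keratinocytes, and its printed stretch is chr7:30787655-30787904 on the plus strand, with the match 81 bases before the start. The stretch of Krt13, a type I keratin of squamous epithelium, is chr11:100120578-100120827 on the minus strand, before one of its annotated starts. It holds the letters at 183 and again at 34 bases. The Krt13 window at the outer start of the gene has no match. The stretch of Dmkn, which encodes the skin protein dermokine, is chr7:30763506-30763755 on the plus strand (89 bases). For Prss23, a secreted serine protease, it is chr7:89518205-89518454 on the minus strand (146 bases), before one of its annotated starts. The Prss23 window at the outer start of the gene has no match. For Plaur, the receptor of the protease urokinase, it is chr7:24462233-24462482 on the plus strand (69 bases). For Serpinb8, a protease inhibitor, it is chr1:107589756-107590005 on the plus strand (23 bases). Krtdap and Dmkn are neighbours, with start sites 24140 bp apart on chromosome 7.

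Another 5 motifs had a larger share in member windows by fewer percentage points, and 3 a smaller one. The CArG box of SRF was in 5 member windows (3.6%, against 1.29%), those of Igf2, Cnn2, Dusp5, Cited1 and Rnf128. The NF-kB motif was in 8.63% of member windows against 5.35%, TATAAA in 11.5% against 6.95%, the heat shock letters TTCNNGAA in 9.35% against 6.56% and the TEAD letters GGAATG in 15.8% against 12.3%. The metal response letters TGCACNC or TGCGCNC (35.3% against 36.2%), the antioxidant response letters TGACNNNGC (12.2% against 14.2%) and the CRE letters TGACGTCA (2.88% against 2.98%) had a smaller share among members. Median GC content was 60.7% in member windows and 61.0% in all. Windows of the same gene overlap, so they are not independent, and a match is a run of letters and not a measured binding site.

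**Figure D1:**
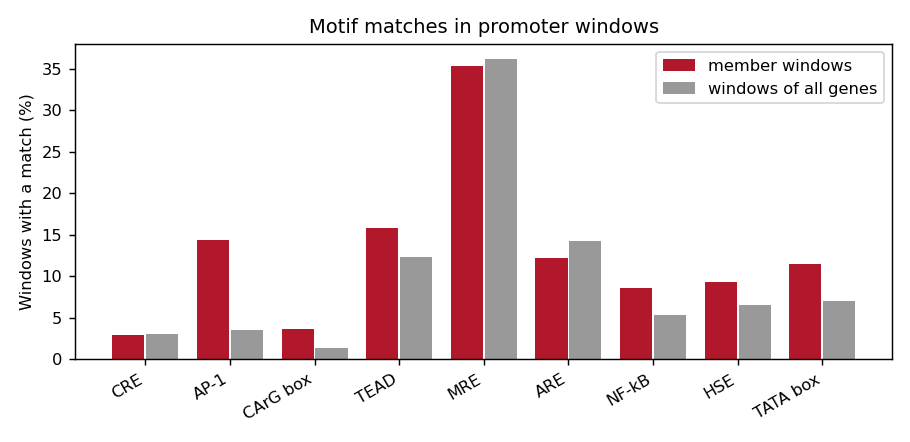
Share of promoter windows (%) with at least 1 match to each motif, for the 139 windows of members (red) and the 13721 windows of all matched genes (grey). AP-1 stands out, at 14.4% against 3.55%, while the metal response element (MRE), the antioxidant response element (ARE) and CRE bars are close in height.

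In structure, the 151 protein-coding members were more compact than protein-coding genes at large. Their median span was 14786 bp, against 24928 bp for all 13176 such genes, and the longest annotated transcript had a median of 5 exons against 9. Length of that transcript hardly differed (3076 bp against 3180.5 bp). The other 8 members were 2 antisense genes, 2 lincRNAs, 2 microRNA loci, 1 bidirectional promoter lncRNA and 1 processed pseudogene.

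The pulse had a median height of 2.72 over 0 h and 2.49 over 24 h on the log2 scale, and the level of the median member was 1.02 before it (0 h), 3.62 in it (6 h) and 0.92 after it (24 h). With the 2 members that had no reads at 0 h (Krtdap and Ptgs2) set to their lower bound, the median over 0 h was again 2.72. The median SD between duplicates was 0.13 for members at 6 h, against 0.1 for all genes. In both replicates, 158 of the 159 had their highest value of the first 24 h at 6 h, and in 127 the duplicate mean fell at each step from 6 to 12, 18 and 24 h. The exception was Aldh3a1, an aldehyde dehydrogenase of epithelia, whose duplicate mean was 0.83 at 6 h and 1.07 at 12 h. At 24 h, 75 members lay above their 0 h value in both replicates and 53 below it in both. Nearest to the limit from inside were Nes (smallest excess 1.51), Reep3 (1.514) and E130317F20Rik (1.518), and nearest from outside were Trim43b (1.496), Rfx4 (1.491) and Adap1 (1.48). At the minimum level, Zfp703 lay just inside with a 6 h mean of 0.114 and Pcsk2 just outside with -0.000424.

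Keratin and epidermal genes took the first and the third place in pulse height (Krtdap and Krt13, with Nppb between them). The list of this name had 28 genes in the files, of which 6 were members (21.4%), and 21 of the 28 were higher at 6 h than at 0 and at 24 h in both replicates, beside 3570 of all 14296 genes. This and all other lists were drawn up with earlier results of these data known. Krtdap (ENSMUSG00000074199.1, chromosome 7, 30787896 to 30791097) had 0 reads in both 0 h libraries and was at 1.62 (A) and 1.41 (B) at 6 h, at least 45.9-fold above the floor of 3 reads over the group, then at -3.84 and -4.24 at 24 h. Krt13 (ENSMUSG00000044041.4, chromosome 11, 100117327 to 100121566) was at -3.24 and -3.27 at 0 h, 3.9 and 4.11 at 6 h, 2.36 and 2.64 at 12 h, and -1.92 and -1.18 at 24 h. Both genes were low before and after. Sfn, an adaptor protein of epithelia, started from a higher base, at 4.44 and 4.34, then 8.6 and 8.6, then 4.81 and 4.94 at 24 h. Krt8 (ENSMUSG00000049382.9, chromosome 15, 101996698 to 102004482), a keratin of simple epithelium and of trophectoderm, was at 5.4 and 5.6, at 8.28 and 8.3, and at 5.46 and 5.55. Krt16, a keratin of stressed epidermis, and Perp, a desmosome protein that p53 also induces, were the other 2, at 1.13 and 7.26 in the 6 h mean. Keratins are close in sequence, so reads may be shared among them.

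**Figure D2:**
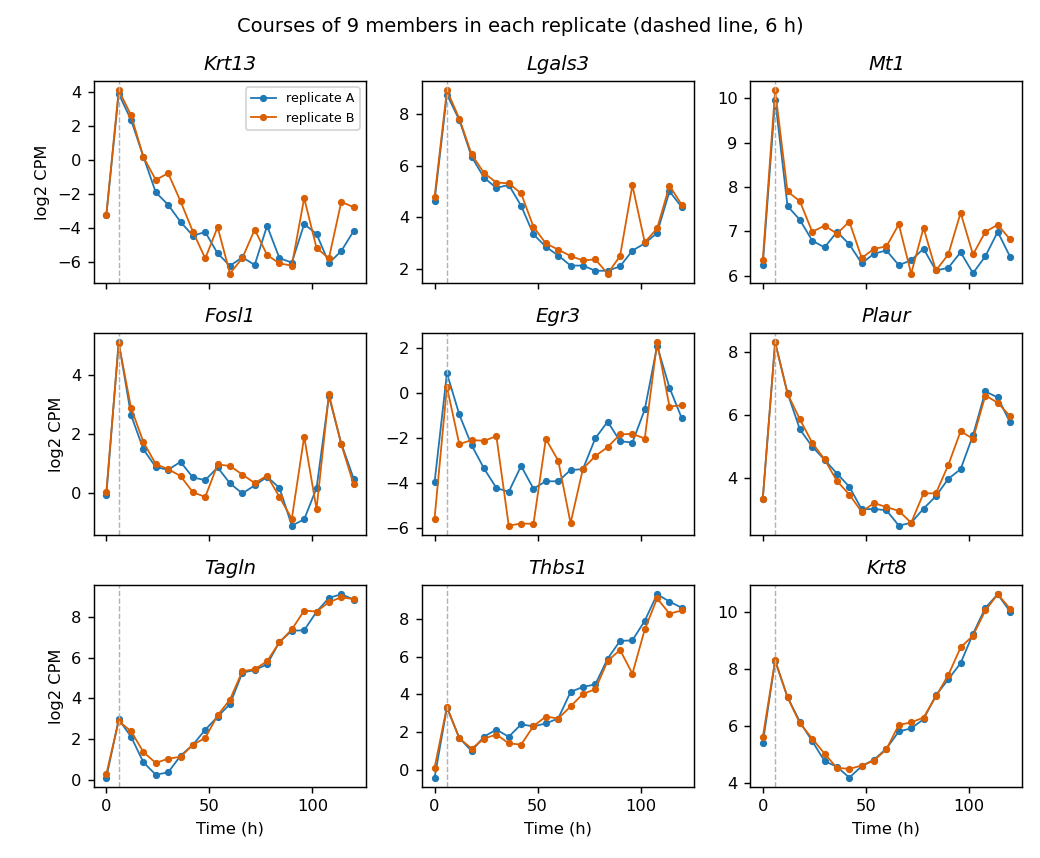
Level in log2 CPM over time (h) of 9 members, each point 1 library, with replicate A in blue and replicate B in orange and a dashed line at 6 h. Krt13, Lgals3 and Mt1 stay below their pulse, Fosl1 and Egr3 peak again at 108 h, and Tagln, Thbs1 and Krt8 end above their 6 h level.

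Of 37 immediate early and AP-1 genes in the files, 10 were members (27.0%). They were the AP-1 subunits Fosl1, Fosl2, Fosb and Atf3, the zinc finger factors Egr3, Egr4 and Klf6, the orphan nuclear receptor Nr4a1, the matricellular protein gene Ccn1, and Ptgs2, which makes prostaglandins. Fosl1 (ENSMUSG00000024912.5, chromosome 19, 5447547 to 5455946) was at -0.07 and 0.02 at 0 h, at 5.1 and 5.07 at 6 h, 34.5-fold higher, and at 0.87 and 0.97 at 24 h. An opposite-strand gene, Ccdc85b, overlaps it, and whether the counting used strand is not given in the sources used here. Fosl2 went from -0.14 and -0.31 to 3.3 and 3.12 and then to -1.21 and -1.18, below its start. Ptgs2 had no reads at 0 h, 1.51 and 1.31 at 6 h (at least 42.7-fold above the floor) and -2.46 and -3.51 at 24 h. Nr4a1 was at 5.79 and 5.87, 7.76 and 7.71, and 5.66 and 5.75, and Klf6 at 4.75 and 4.75, 7.67 and 7.33, and 5.39 and 5.43. Egr3, Egr4, Fosb and Atf3 were lower, with no 6 h library above 2.12.

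The ERK feedback list added the phosphatase Dusp5 and the pleckstrin-domain gene Phlda1 to Fosl1, 3 of 16 genes (18.8%). Dusp5 was at 2.63 and 2.43 at 0 h, 5.35 and 5.33 at 6 h, and 2.58 and 2.56 at 24 h. Phlda1 was higher at 6 h and less far back at 24 h, at 2.61 and 2.91, then 7.6 and 7.6, then 4.71 and 4.79. Hbegf, a ligand of the EGF receptor, was 1 of 6 EGF family genes, and was at 4.82 and 4.9, 8.21 and 8.09, and 4.88 and 4.84. Of 23 cytokine, chemokine and NF-kB genes in the files 2 were members (8.7%), Ptgs2 and Tril, a cofactor of Toll-like receptors. Tril had 1 read at 0 h and 283 reads at 6 h, a ratio of 302 with a counting interval of 53.8 to 12000.

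Metallothioneins reached the highest level per length. Mt2 stood at 1850 CPM per kilobase of its longest annotated transcript at 6 h and Mt1 at 993. The galectin Lgals3 followed at 322 and Sfn at 240, with annotated lengths as the only correction. The length used was 511 bp for Mt2 and 1085 bp for Mt1, whose longest transcript has 1 exon. Without this correction Mt1 was the higher of the pair, at 10.07 against 9.88 in the 6 h mean. Mt1 (ENSMUSG00000031765.7, chromosome 8, 94179082 to 94180327) was at 6.25 and 6.36 at 0 h, 9.97 and 10.18 at 6 h, and 6.79 and 6.99 at 24 h. Its neighbour Mt2 (ENSMUSG00000031762.6, 94172664 to 94173568), with a start 6418 bp away, was at 5.65 and 5.82, 9.82 and 9.94, and 7.34 and 7.27. At 24 h both duplicates of Mt2 were still above both of its 0 h libraries. They were 2 of the 4 genes of the metal list that were in the files. No gene of the NRF2 list (18 in the files) or the heat shock list (18) was a member. Nor was any of the list of ATF4 and the unfolded protein response (17). Of the p53 target list (22), 1 was a member, Perp. The ATF4 list did not hold the member Atf3, nor the p53 list the member Sfn, which stood in the immediate early and keratin lists. As 1.11% of all genes were members, 0 in lists this short is near that share. Higher at 6 h than at 0 and 24 h in both replicates were 12 NRF2, 7 heat shock, 7 ATF4 list and 13 p53 list genes. Of all 14296 genes 3570 were.

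The pulse also took in the cytoskeleton and the matrix. Sorted by hand on textbook roles after the members were known, 35 encode transcription or chromatin factors, 22 cytoskeletal, filament or adhesion proteins, 20 membrane receptors, channels or transporters, 17 matrix proteins, proteases or their inhibitors, 11 secreted ligands or hormones, 10 enzymes or carriers of lipid, hormone or metal metabolism, and 7 proteins of intracellular signalling. Another 29 had other roles or were not sorted, and 8 were noncoding or pseudogenes. Plec, a linker of filaments to junctions, was at 9.47 and 9.21 at 6 h against 7.03 and 6.99 at 0 h, and Cavin1, a coat protein of caveolae, at 9.41 and 9.33 against 7.01 and 7.03. Wdr1, which speeds actin turnover, Ahnak, a large scaffold under the membrane, and the annexin Anxa7 were at 8.9, 8.84 and 8.37 in the 6 h mean and 6.43, 6.34 and 6.77 at 0 h. Of 34 actin, SRF and YAP target genes 4 were members (11.8%, Tagln, Cnn2, Ccn1 and Thbs1), and 26 of the 34 were higher at 6 h than at 0 and 24 h in both replicates. Of 31 integrin, matrix and protease genes 4 were members as well (12.9%), among them Plaur, the filamin Flnc and Thbs1.

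Among secreted ligands, several were close to undetected before and after the pulse. Edn1, the vessel-constricting peptide endothelin, was at -2.39 and -3.27, 2.12 and 1.89, and -1.77 and -3.02 at 0, 6 and 24 h. Bmp2, a bone morphogenetic protein, was at -3.24 and -2.42, 1.76 and 1.31, and -2.46 and -1.92, and Id1, a target of BMP signals that blocks helix-loop-helix factors, at 4.92 and 5.16, 6.77 and 6.86, and 4.5 and 4.5. They were 2 of 26 TGF-beta, Nodal and BMP genes (7.69%). Nppb, a natriuretic peptide of the heart, was at -1.86 and -1.89, 3.56 and 3.43, and -2.46 and -3.02, and Vgf, a precursor of neuropeptides, at -1.86 and -1.89, 4.96 and 5.03, and 0.52 and 0.51. The low values of Edn1 differed by over 1 unit between duplicates at 24 h. Wnt7b was the single member of 27 genes of the Wnt and Notch list (3.7%), which did not hold the members Wnt6 and Wnt10a, whose starts lie 19624 bp apart on chromosome 1.

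The rest of the 10 tallest pulses came from Cemip, Il6ra, Dmkn and Mgat4c. Cemip, which breaks down hyaluronan, was at 0.32 and -0.64, 4.82 and 4.45, and -0.55 and 0.05. Il6ra, the receptor chain for interleukin 6, a cytokine of the same family as LIF, was at -0.2 and -0.38, 4.02 and 3.76, and -0.33 and -0.27. Dmkn and the glycosyltransferase gene Mgat4c reached 2.91 and 2.39 in the 6 h mean from -2.69 and -3.62. None of the 15 naive pluripotency genes was a member, though 8 of them were higher at 6 h than at 0 and 24 h in both replicates. Epop, a partner of the Polycomb complex in ESCs, was at 6.58 and 6.71, 8.81 and 8.93, and 7.29 and 7.38, and Nr5a2, a nuclear receptor of naive ESCs outside that list, at 4.92 and 4.64, 7.15 and 6.82, and 4.79 and 4.77.

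Noncoding members were few. With the pseudogene, their median 6 h level was 2.01, against 3.62 for all members, though Miat, 4930444M15Rik and Mir293 were near the latter. Miat, a nuclear lincRNA, was at 1.31 and 1.89, 3.5 and 3.55, and 0.49 and 0.28. The lincRNA 4930444M15Rik was at 1.95 and 1.57, 3.64 and 3.73, and 2.03 and 1.93. The antisense genes 6330403L08Rik (overlapping Pdgfa) and 1700042O10Rik (overlapping Ddc), and E130317F20Rik, which overlaps Ptbp1, had 6 h means of 2.11, 1.91 and 1.46, and reads of the gene on the other strand cannot be told apart from theirs without a stated strand setting. Mir292 and Mir293, 1154 bp apart in the miR-290 cluster of ESCs, were at 1.09 and 1.34 and at 3.32 and 3.53 at 6 h. Poly-A libraries read the primary transcript of such a locus and not the mature microRNA. The 3 mature sequences that RefSeq gives for these 2 loci are shown because 2 of them share a seed (bases 2 to 8, in capitals).
mmu-miR-292a-5p: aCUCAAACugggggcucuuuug
mmu-miR-293-5p: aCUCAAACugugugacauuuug
mmu-miR-293-3p: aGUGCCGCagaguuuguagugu

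These lie on the plus strand of GRCm38.p6 at chr7:3219200-3219221, chr7:3220356-3220377 and chr7:3220390-3220411, and mmu-miR-292a-5p and mmu-miR-293-5p have the seed CUCAAAC in common. Gm12057, a processed pseudogene, and the histone genes Hist1h2bc and Hist1h1c share sequence with other copies and their values are uncertain.

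How fast the pulse faded was read in libraries outside the choice at 12, 18 and 30 h. The share of the log2 height over the 30 h level that was left had a median of 56.3% (A) and 53.2% (B) at 12 h, and 24.4% and 26.4% at 18 h. Mt2 had 17.7% and 15.2% left at 12 h and Mt1 27.7% and 25.2%, below the median. Rhob, a small GTPase of actin stress fibres, had 22.9% and 26.2%. A few members were below their 30 h level by 12 h, among them Thbs1 and Atf3, so that their share was negative. Fosl1 kept 42.7% and 48.7%, Plaur 56.9% and 56.0%, Hbegf 59.9% and 59.9%, and Lgals3 73.1% and 69.2%. Wnt10a, with 98.1% and 91.8%, was close to its 6 h level at 12 h. The metallothioneins and Rhob were thus below the median in both duplicates, and Lgals3 and Wnt10a above it. The 6 h term of these shares took part in the choice, so they are a description.

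Of the 159 members, 57 (35.8%) were higher at 12 h than at 30 h and 0 were lower, by limma at adjusted p < 0.0001 over all genes, where 2.2% of the 14296 genes were higher and 4.08% lower. At an unadjusted p < 0.05 the counts were 125 higher and 0 lower, but the share over all genes was not counted. At adjusted p < 0.05 they were 118 and 0, beside 11.6% and 14.9% of all genes. All 57 had duplicates that did not overlap. The same held for every call of the other contrasts, so this adds nothing to the calls. The median member was 1.55 higher, against -0.01 over all genes. Cavin1 was at 8.11 and 8.02 at 12 h and at 5.83 and 5.98 at 30 h, a difference of 2.16 (SE 0.09, adjusted p = 3.35e-14). Tinagl1, a matrix glycoprotein, was at 2.2 and 1.99 against -4.23 and -2.66 (5.54, SE 0.39, adjusted p = 1.26e-10), but only 2 reads in all stood behind its 30 h level, so the ratio of 79.5 has a counting interval of 21.8 to 659. Mal, a membrane-sorting protein, had no reads at 30 h and was at least 10.2-fold above the floor at 12 h, and Evx1, a homeobox factor of the primitive streak with 1 read at 30 h, had a ratio of 46.3 (interval 8.1 to 1850). Evx1 overlaps the antisense gene Evx1os, and its call was lost with voom weights, in the fit on all libraries and without 12 h A, 12 h B or 30 h A (adjusted p between 0.000201 and 0.0283 in limma). Id1 (2.46 ± 0.16 SE, adjusted p = 2.78e-11) and Krt8 (2.12 ± 0.13 SE, adjusted p = 1.07e-11) were higher at 12 h by a similar amount. Leaving out 1 library left between 30 and 37 members (30 without 12 h A, 35 without 12 h B, 37 without 30 h A, 33 without 30 h B), while the share of all genes fell to between 0.811% and 1.06%.

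By 18 h, 15 members (9.43%) were still higher than at 30 h and 0 were lower, against 0.469% and 1.28% of all genes. At an unadjusted p < 0.05 the counts were 86 and 5, again without a count over all genes. At adjusted p < 0.05 they were 55 and 0, beside 5.41% and 8.76% of all genes. Among the 15 were Sfn, Fosl2, Mal, Hbegf, Tinagl1, Phlda1, Krt8, Cavin1, Lmna, Wnt7b, Fgfbp1, AU015836, Id1 and Anxa2. Wnt7b, at 1.26 and 1.21 against -0.77 and -1.44, was 2.34 higher (SE 0.32, adjusted p = 1.89e-05). Fosl2 was at -0.42 and -0.22 against -3.01 and -1.93 (2.15, SE 0.26, adjusted p = 3.86e-06). The Wnt7b call was lost with voom weights and without 18 h A, 18 h B or 30 h B (adjusted p between 0.000237 and 0.00144), and that of Mal with voom weights and without 18 h A, 18 h B or 30 h A (adjusted p between 0.000902 and 0.00501, and 0.0058 with voom). Without 1 of the 4 libraries the count was between 6 (without 18 h B) and 9 (without 30 h B), with 8 without 18 h A and 8 without 30 h A.

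**Figure D3:**
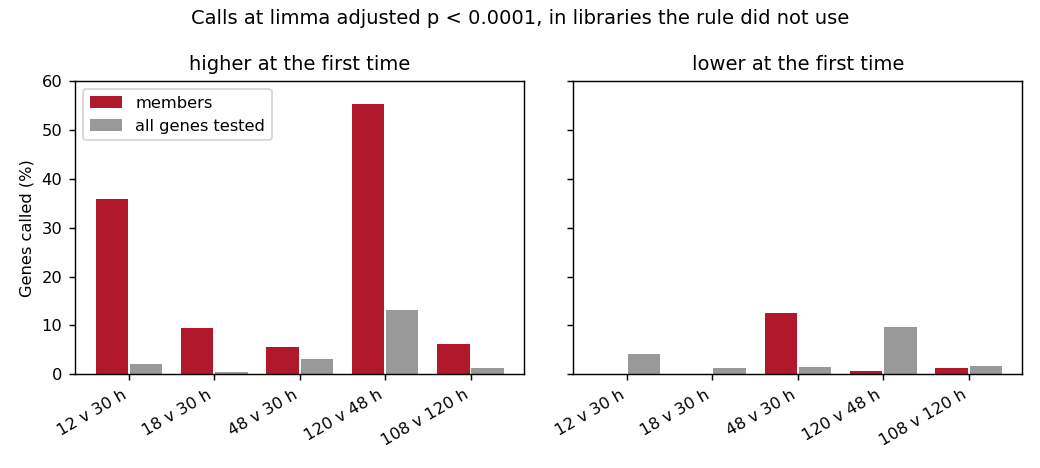
Percent of the 159 members (red) and of all 14296 genes (grey) that were called higher (left) or lower (right) at the first of 2 time points (v, against), by limma at adjusted p < 0.0001. The tallest red bar is 55.3% for 120 h against 48 h, beside 13.2% of all genes.

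After 24 h the median level was lowest at 42 and 48 h and higher late in the course. The median member went from 0.7 (30 h) to 0.43 (42 and 48 h). It then stood at 1.28 by 72 h, reached 2.38 by 96 h and 3.14 by 114 h, and ended at 2.67, while the median of all genes moved only between 4.27 and 4.45 from 30 h on. Of the 159, 66 had their lowest duplicate mean from 30 h on between 30 and 42 h, 26 of them at 30 h itself. The highest was between 102 and 120 h in 115, with 45 at 108 h and 47 at 114 h. Lowest and highest times were not counted over all genes, so these counts only describe the members. The duplicates of 96 h were further apart than others, with a median SD of 0.45 for members and 0.29 for all genes.

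**Figure D4:**
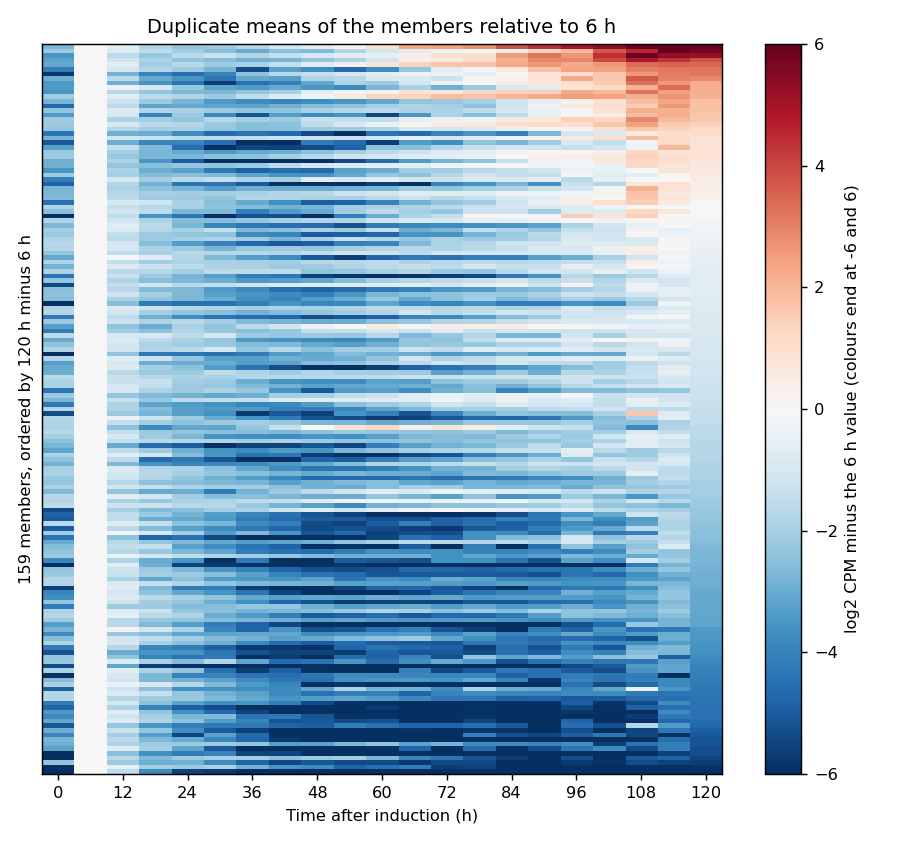
Duplicate means of the 159 members (rows, ordered by 120 h minus 6 h) over the 21 time points, as the difference in log2 CPM from the 6 h value, red above and blue below. Nearly all rows are blue from 30 to 60 h, and the upper rows turn red from about 96 h, with 35 members above their 6 h level at 120 h in both replicates.

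Between 30 and 48 h, 20 members fell (12.6%, against 1.53% of all genes lower) and 9 rose (5.66%, against 3.04% higher). Emp1, an epithelial membrane protein, went from 4.12 and 3.81 at 30 h to 1.21 and 0.56 at 48 h (fell by 3.08, SE 0.45, adjusted p = 1.76e-05), and Pla2g7, a secreted phospholipase, from 3.54 and 3.8 to 0.57 and 1.3 (fell by 2.74, SE 0.26, adjusted p = 5.41e-08). Plaur, Hbegf, Phlda1, Cavin1, Lmna, Tead4, Nr5a2, Sox7, Tshz1, Nt5e, Fgfbp1, Ankrd33b, Mme, S100a6, AU015836, Anxa2 and Hmga2 also fell. The 9 that rose were Miat, Prss23, Fosl2, Tagln, Dusp8, Cpeb2, Zbtb10, Plxnc1 and Ets1. Miat went from 0.95 and -0.16 to 3.79 and 3.43 (3.21, SE 0.32, adjusted p = 9.83e-08) and Prss23 from -1.73 and -2.66 to 0.22 and 0.56 (2.59, SE 0.29, adjusted p = 3.83e-07). Fosl2, at -3.01 and -1.93 and then -0.23 and 0.45, rose by 2.58 (SE 0.26, adjusted p = 1.06e-07). Without 1 library the falling count was 14 (48 h A), 9 (48 h B), 9 (30 h A) or 12 (30 h B), and the rising count 4 (48 h A), 6 (48 h B), 8 (30 h A) or 4 (30 h B). With voom weights the rising count was 1, with Fosl2 and Prss23 among the calls lost (adjusted p = 0.00193 and 0.00236), and Emp1 was no longer called without any 1 of the 4 libraries (adjusted p between 0.000148 and 0.00126). In the fit on all 42 libraries Prss23 was not called either (adjusted p = 0.000791). Of all genes, 1.22% were higher at 48 h with voom weights. At adjusted p < 0.05, 19 members rose and 55 fell, beside 13% and 7.88% of all genes. The share of members that rose was thus not above that of all genes at this threshold.

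From 48 to 120 h, 88 members rose (55.3%, against 13.2% of all genes higher) and 1 fell (0.629%, against 9.58% lower). The median member was 2.07 higher at 120 h, against 0.0 over all genes. Of the 20 that had fallen from 30 to 48 h, 19 rose again, and 7 of the 9 that had risen rose further. Both contrasts use the 48 h libraries, so a low value there favours a fall and then a rise. These joint calls were not counted over all genes. Tns1, an adaptor of focal adhesions, was the one that fell, from 5.12 and 4.89 to 4.02 and 3.96 (fell by 1.02, SE 0.19, adjusted p = 6.29e-05). It was no longer called without any 1 of the 4 libraries, which left 0.

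The largest late rise was that of Igf2, the embryonic insulin-like growth factor, with an antisense gene on the other strand. It was at 3.39 and 3.63 at 6 h, 0.76 and 1.0 at 48 h, and 9.14 and 9.24 at 120 h, 8.31 higher than at 48 h (SE 0.19, adjusted p = 7.01e-20). Tinagl1 went from -2.38 and -3.5 to 4.65 and 4.69 (7.61, SE 0.39, adjusted p = 8.78e-14) and Gata3, a factor of trophectoderm and other epithelia, from -3.52 and -3.5 to 3.35 and 3.39 (6.88, SE 0.49, adjusted p = 3.67e-11). Tagln (ENSMUSG00000032085.4, chromosome 9, 45929619 to 45936058), the smooth muscle protein transgelin, which Pcsk7 overlaps on the other strand, was at 2.97 and 2.88 at 6 h and 8.85 and 8.87 at 120 h, against 2.46 and 2.06 at 48 h (6.6, SE 0.22, adjusted p = 4.13e-17). Thbs1, the adhesive glycoprotein thrombospondin, rose by 6.22 (SE 0.37), Ccn1 by 6.18 (SE 0.15), Krt8 by 5.47 (SE 0.13) and Sfn by 4.45 (SE 0.24). All 4 members of the actin, SRF and YAP list rose in this interval, as did 27 of its 34 genes, and 18 of the 28 keratin and epidermal genes.

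At 120 h, 35 members were above their 6 h value in both replicates, and 40 were at 108 h. In 107 members the 6 h duplicate mean was the highest of all 21. Against the start, 114 members were above their 0 h value at 120 h in both replicates and 33 below it. The choice favoured low 0 h and high 6 h values, so counts set against these times are a description. They were not made over all genes. Mt1 and Mt2 were below their 6 h level at 120 h, at 6.43 and 6.82 and at 6.87 and 6.79. Their differences from 48 h were 0.29 (SE 0.28, adjusted p = 0.403) and -0.19 (SE 0.23, adjusted p = 0.499). Krt13, at -4.2 and -2.79 at 120 h, and Lgals3, at 4.38 and 4.47, did not pass the test either (adjusted p = 0.245 and 0.0516). Krtdap was at -1.39 and -1.21, 20 reads against 0 at 48 h, at least 7.31-fold above the floor (adjusted p = 0.00229).

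**Figure D5:**
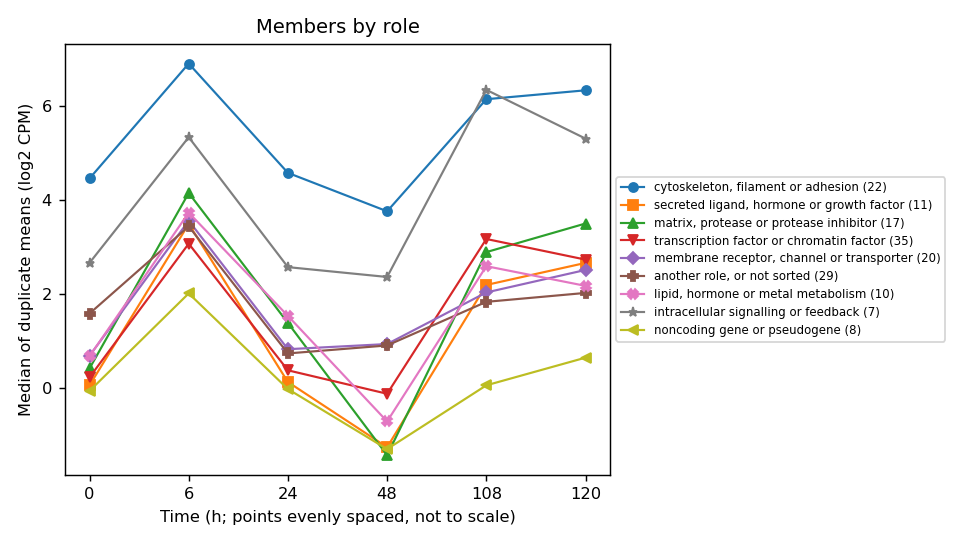
Median of the duplicate means (log2 CPM, not corrected for gene length) at 0, 6, 24, 48, 108 and 120 h for the members sorted by role, with the number of members in brackets. Every line is higher at 6 h than at 0 and 24 h, which the choice fixed, and turns up again after 48 h. At 108 h the lines of intracellular signalling (6.35, against 5.34 at 6 h) and of transcription factors (3.17, against 3.07) are above their pulse. At 120 h they are at 5.31 and 2.73. All other lines stay below their 6 h value at 108 and 120 h, among them cytoskeleton (6.15 at 108 h, 6.91 at 6 h) and noncoding genes (0.05 and 2.01).

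The members that rose late came from every role group, and differences between the groups were not tested. Of the 35 transcription or chromatin factors 20 rose from 48 to 120 h, of the 17 matrix and protease genes 12, of the 20 receptors, channels and transporters 12, of the 22 cytoskeletal genes 11, of the 11 ligands 7, of the 7 signalling genes 6, of the 10 metabolic genes 4, of the 8 noncoding genes or pseudogenes 2 and of the 29 others 14, beside 13.2% of all genes. Wnt7b rose from -1.93 and -1.57 to 2.44 and 2.92 (4.43, SE 0.32), Bmp2 from -3.52 and -4.23 to 2.67 and 2.67 (3 reads at 48 h, ratio 120, interval 40.8 to 586) and Edn1 from -4.26 and -4.23 to 2.31 and 2.53 (2 reads at 48 h, ratio 151, interval 41.4 to 1250). Homeobox members went separate ways, since Evx1 reached 2.01 and 1.7 at 120 h (2 reads at 48 h, ratio 104, interval 28.3 to 862), whereas Gsx1 and Tlx2, both factors of the nervous system, were at -4.2 and -2.43 and at -4.2 and -3.28. Among circadian genes Arntl, which encodes a clock factor, was at 6.66 and 6.46 at 6 h and 3.36 and 3.44 at 120 h.

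Although the median member was highest late at 114 h, 45 members had their late maximum at 108 h, which was not counted over all genes. The contrast of 108 h with 120 h was chosen after seeing the data. The median member differed by -0.02, with 78 members higher and 81 lower at 108 h. Past the threshold, 10 members were higher at 108 h (6.29%, against 1.29% of all genes) and 2 were lower (1.26%, against 1.74%). The 10 were Dusp5, Klf6, Nr4a1, Ccn1, Rhob, Tnfrsf12a, Fgfbp1, Wdr1, Reep3 and Nes. Each gene is given in the order 102, 108, 114 and 120 h. Dusp5 was at 5.1 and 5.26, 7.5 and 7.48, 6.31 and 6.08, and 5.71 and 5.71, with 108 h higher than 120 h by 1.78 (SE 0.17, adjusted p = 7.96e-08). Klf6 was at 7.8 and 7.57, 9.25 and 9.14, 8.25 and 8.14, and 7.81 and 7.79 (1.39, SE 0.1, adjusted p = 9.11e-10). Nr4a1 was at 5.57 and 5.6, 7.25 and 7.13, 6.16 and 6.2, and 5.81 and 5.92 (1.32, SE 0.16, adjusted p = 1.97e-06). In each of them both 108 h libraries were above all libraries of 102, 114 and 120 h.

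Immediate early members also differed among themselves. Without a call, Fosl1 was at 0.16 and -0.55, 3.27 and 3.34, 1.67 and 1.64, and 0.48 and 0.29 (2.92, SE 0.49, adjusted p = 0.000139), and Egr3 at -0.74 and -2.03, 2.08 and 2.25, 0.23 and -0.61, and -1.14 and -0.55 (3.02, SE 0.95, adjusted p = 0.0224). Egr4 had 72 reads at 108 h and 3 at 120 h, a ratio of 20.0 with a counting interval of 6.58 to 99.3 (adjusted p = 0.00832). Ptgs2 differed by -0.07 (adjusted p = 0.959). Among the called members, Fgfbp1, a carrier of fibroblast growth factors, was at 6.91 and 6.82 against 5.38 and 5.51 (1.43, SE 0.18, adjusted p = 4.09e-06). The 2 lower members were Miat, at -0.54 and -0.13 against 2.03 and 1.89 (fell by 2.29, SE 0.32, adjusted p = 1.64e-05), and Tubb3, a neuronal tubulin, at 1.76 and 2.13 against 3.78 and 3.63 (fell by 1.76, SE 0.24, adjusted p = 1.17e-05). Without 1 library the higher count was 4 (108 h A), 5 (108 h B), 4 (120 h A) or 5 (120 h B), and the lower count was 0 in each case. The calls of Fgfbp1, Miat and Tubb3 were lost without any 1 of the 4 libraries (adjusted p between 0.000118 and 0.000977), and that of Miat also with voom weights (adjusted p = 0.00011).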

How the data were processed

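Poly-A RNA of 42 libraries (21 time points, duplicates A and B) was sequenced as stranded paired ends. The authors used Trim Galore! for trimming, Tophat2 for alignment against mm10 and HTSeq for counts over GENCODE vM2 genes, normalized library size with edgeR, kept genes above 1 CPM in at least 2 samples and deposited log2 CPM values from voom, with an offset of 0.5 read. Tool versions and the strand setting of the counting are not given in the sources used here. Whole reads were recovered from the steps of the deposited log2 values and used for read counts, depth and counting intervals (95%, counting error only).

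Members were found on the deposited values. Members and gene lists were chosen with earlier results of these data known. Time points outside the choice were compared with limma 3.58.1 in R 4.3.3 (time as a factor over 18 time points, trended variance), with Benjamini-Hochberg adjustment over all genes and a threshold of 0.0001. The code was tested on simulated data. Python 3.11.15, numpy 2.4.6, pandas 2.3.3 and matplotlib 3.10.9 were used for the rest. A fold against 0 reads uses a floor of 3 reads over both libraries. Coordinates are from GENCODE M21 on mm10, matched for 14177 genes, and overlaps with other genes are from the same annotation.

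Genes were named by fixed rules: the 10 tallest pulses, the 10 highest at 6 h, up to 4 per list, up to 3 per contrast and direction, and noncoding members. One gene that these rules name is not reported here. Others were named after their values were seen, as were the printed promoters, the role groups and the contrast of 108 h with 120 h. Alternatives covered the thresholds of the choice, the offset, voom weights, a fit on all libraries, a filter on low genes, a replicate block and leaving out each library.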

Additional observations from a re-analysis of the deposited data

How the results depend on the processing

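The number of members was 329 with an excess of 1, 83 with an excess of 2 and 100 on log2(CPM + 1). At adjusted p < 0.05, 118 members were higher at 12 h and 55 at 18 h than at 30 h. The shares of all genes were 11.6% and 5.41%. At 48 h against 30 h, 19 were higher and 55 lower, beside 13% and 7.88% of all genes. The share of members higher at 48 h was thus not above that of all genes at this threshold. At 120 h against 48 h, 6 were lower, beside 26.6% of all genes. At 108 h against 120 h, 33 were higher and 12 lower, beside 11.6% and 13.1%. With voom weights, 1 member was higher at 48 h than at 30 h, 2 fell from 48 to 120 h, and 108 h exceeded 120 h in 17 and was below it in 5. The shares of all genes in the same order were 1.22%, 9.32%, 1.6% and 1.66%. With all 42 libraries in the fit, 3 fell from 48 to 120 h. Leaving out 1 library gave 30 to 37 members higher at 12 h and 6 to 9 at 18 h than at 30 h, 4 to 8 higher and 9 to 14 lower at 48 h than at 30 h, 0 lower at 120 h than at 48 h, and 4 to 5 higher and 0 lower at 108 h than at 120 h. A fit on 1 library at a time point assumes that it varies like the others. The causes were not tested. Of the values for single named genes, 126 kept their side of the threshold, 38 lost it and 0 were reversed.

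The letters A and B were not shown to pair the samples: over 153 pairs of time points the deviations of same-lettered libraries correlated at 0.0781 on average, over 0.1 in 73 pairs, and at -0.474 at the lowest. With the replicate block, 2 members fell from 48 to 120 h, beside 11.6% of all genes. The other counts stayed within 1.5 times.

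Differences of members with few reads at a time point depend on the offset, and 3 reads equal 0.0571 to 0.316 CPM.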
